A study of Mus musculus with 15 samples.

Results

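The glandular kallikreins are secreted serine proteases that lie side by side on mouse chromosome 7. All genes named Klk1 or Klk1b followed by a number were taken, which gave 9 of the 12897 genes counted in distal colon. These were Klk1, Klk1b3, Klk1b4, Klk1b5, Klk1b9, Klk1b11, Klk1b21, Klk1b24 and Klk1b27. The family was chosen because of its levels in these libraries, so its values are a description and no p-value of a member is given. Counts of members past a threshold stand beside the share of all genes past it, and nothing is read from them. A sum over Klk1, Klk1b3, Klk1b4, Klk1b5 and Klk1b11, the 5 genes listed at the outset, served as the level of the family.

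RNA-seq covered 15 colons from mice of the C57BL/6 (B6) background, 3 in each of 5 groups. Wildtype B6 mice were untreated (control sets 1 and 2) or taken at day 26 (D26) of AOM/DSS treatment, and Irf1 knockout (Irf1-/-) mutants were untreated or taken at D26. Treated mice received the carcinogen azoxymethane (AOM) at 7 mg/kg on D1 and dextran sulfate (DSS), which injures the epithelium, at 2% from D8 to D11. The knockout is carried by all cells of the mutants, and whole tissue was sequenced, so fewer cells of a type and less RNA per cell cannot be told apart. Libraries held 22266607 to 22869853 counts, and levels below are CPM, the counts of a gene relative to its library's total, after TMM scaling for library composition.

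Klk1 encodes tissue kallikrein, which releases kinins from kininogen. Kinins act through bradykinin receptors on vessels, nerves and epithelium, and peptidases such as angiotensin-converting enzyme end their action. The Klk1b genes arose by duplication in the mouse lineage and are best known from the submandibular gland. There, Klk1b3 and Klk1b4 make the gamma and alpha subunits of the nerve growth factor complex, and Klk1b9 makes a protein that binds epidermal growth factor.

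The Klk1 and Klk1b transcripts are close to identical over long stretches, which bears on every count below because the libraries were read as pairs of 50 bp. GENCODE M21 (GRCm38) holds 14 coding genes of the family, of which Klk1b1, Klk1b8, Klk1b16, Klk1b22 and Klk1b26 were not analysed here. Between the 36 pairs of counted genes, 84.67% to 95.15% of aligned coding bases were the same. Klk1b5, the next gene to Klk1 on the chromosome, was the most like it (95.15%), followed by Klk1b4 (90.36%) and Klk1b3 (88.63%), and Klk1b11 was the least like it (84.67%). The 50 coding bases of Klk1 that differed least from the other 8 genes are shown first. A read from there, taken without the other read of its pair, could come from almost any of them. The window lies in exon 3 on the + strand (GRCm38), at chr7:44228748-44228797 in Klk1, and capitals mark bases that differ from Klk1.
Klk1: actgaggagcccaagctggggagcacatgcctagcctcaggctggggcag
Klk1b5: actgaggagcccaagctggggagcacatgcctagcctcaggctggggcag
Klk1b11: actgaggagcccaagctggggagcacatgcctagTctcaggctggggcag
Klk1b9: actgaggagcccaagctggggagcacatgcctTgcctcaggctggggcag
In this window Klk1b3, Klk1b4, Klk1b21, Klk1b24 and Klk1b27 had 0 differences from Klk1, as did Klk1b5, and Klk1b9 and Klk1b11 had 1 each.

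The 50 coding bases that differed most lie in exon 5, at chr7:44229516-44229565 in Klk1, and show how a read can be told apart near the end of the coding sequence. The aligned bases are at chr7:44220601-44220650 in Klk1b5, chr7:44211652-44211701 in Klk1b4, chr7:44202252-44202301 in Klk1b3 and chr7:43999773-43999822 in Klk1b11.
Klk1: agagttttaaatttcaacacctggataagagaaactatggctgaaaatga
Klk1b5: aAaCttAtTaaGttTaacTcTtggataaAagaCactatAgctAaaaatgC
Klk1b4: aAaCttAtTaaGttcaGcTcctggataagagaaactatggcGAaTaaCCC
Klk1b3: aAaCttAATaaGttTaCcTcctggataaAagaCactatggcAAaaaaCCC
Klk1b11: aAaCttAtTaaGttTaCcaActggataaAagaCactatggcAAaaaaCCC
Here Klk1b4 and Klk1b5 had 13 differences from Klk1, Klk1b11 had 15 and Klk1b3 had 16.

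Over the whole transcript, 12.67% of the 50-base windows of Klk1b5 were identical in Klk1, against 10.12% for Klk1b3, 7.848% for Klk1b4 and 6.634% for Klk1b11. With up to 2 differences allowed, the share was 40.54% in Klk1b5 and 35.82% in Klk1b4. Against any of the other 13 genes, 10.44% (Klk1b11) to 32.09% (Klk1b24) of the windows of a counted gene were identical. These shares are for single windows of 50 bases. The other read of a pair, which can tell genes apart, was not considered. How reads that match several genes were counted is not given in the sources used here, so the count of each Klk1b gene is uncertain.

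**Figure D1:**
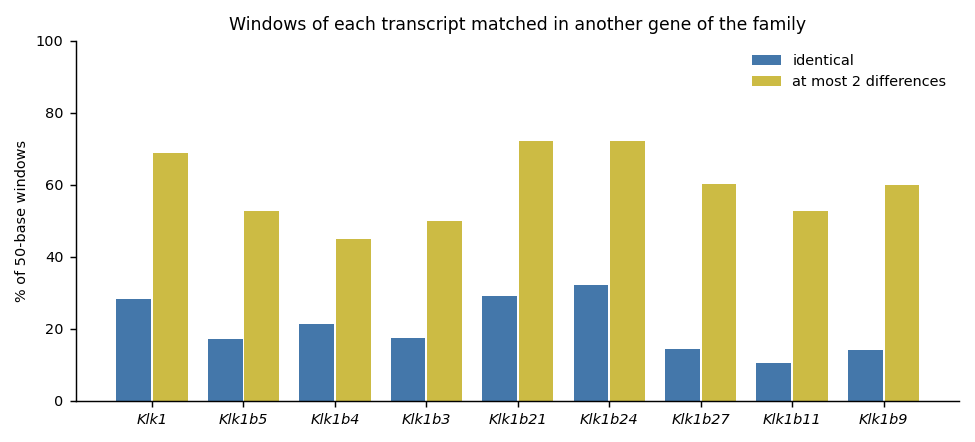
Percentage of the 50-base windows of each counted transcript (GENCODE M21) that occur in at least 1 of the other 13 genes of the family, identical (blue) or with at most 2 differences (yellow). Klk1b21 and Klk1b24 had the highest shares with at most 2 differences (72.02% and 72.14%) and Klk1b4 the lowest (44.81%).

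Klk1 made up most of the family's counts. Its mean over the 15 libraries was 660 CPM and it took 76.62% of all counts of the 9 genes. Klk1b5 followed at 88.8 CPM (10.31%), then Klk1b4 at 26.1, Klk1b3 at 25.43, Klk1b21 at 16.27, Klk1b24 at 15.62, Klk1b27 at 11.24, Klk1b11 at 10.35 and Klk1b9 at 7.641 CPM (0.8868%). Divided by transcript length, the levels were 691.8 CPM per kb for Klk1, 63.84 for Klk1b5, 31.11 for Klk1b4 and 28.6 for Klk1b3, so Klk1 and the 3 genes nearest to it kept their order. All 9 genes were above the authors' limit of 5 CPM in every library. The lowest count was 119 reads of Klk1b9, with a counting error (SD) of 9.17%, and the highest 18546 reads of Klk1 (0.734%), so for the rarer genes counting adds visibly to the spread between mice. Counting errors cover sampling of reads only.

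The members varied together across libraries. Over the 15 libraries, log2 levels of the 36 gene pairs had a Pearson's r of 0.838 to 0.991, and 0.478 to 0.951 after the mean of each group was removed. These are descriptions over genes that share libraries and sequence.

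Klk1 was lowest in untreated B6 mice of control set 1. Its levels there were 566.4, 453.2 and 565.4 CPM, and in control set 2 they were 709.4, 623.4 and 664.8 CPM. Untreated Irf1-/- mutants had the highest levels, 799.8, 825.1 and 713.1 CPM. At D26 they were 699.2, 614.0 and 709.3 CPM in B6 mice and 644.7, 690.3 and 622.2 CPM in Irf1-/- mutants. The 3 libraries of control set 1 lay below all others and those of untreated mutants above all others, while control set 2 and both treated groups overlapped. The lowest group mean was 528.3 ± 65.09 CPM and the highest 779.3 ± 58.77 CPM (SD over 3 mice each), a ratio of 1.475.

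Klk1b5, the second most abundant member, had 70.71, 57.92 and 72.04 CPM in control set 1 and 105.7, 86.6 and 99.82 CPM in control set 2. Untreated Irf1-/- mutants had 111.4, 120.7 and 105.4 CPM. Treated B6 mice had 83.5, 84.89 and 90.71 CPM and treated mutants 76.9, 89.13 and 76.5 CPM. Control set 1 was again below every other library, and each of the other groups overlapped the next one in the order treated mutants, treated B6, control set 2, untreated mutants.

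Klk1b11 spread the most between groups. It had 7.176, 5.638 and 6.92 CPM in control set 1, 11.39, 10.8 and 12.54 in control set 2, and 14.22, 15.35 and 12.97 in untreated Irf1-/- mutants. In treated B6 mice it had 10.02, 10.56 and 11.2 CPM and in treated mutants 9.215, 9.34 and 7.851 CPM. Treated B6 mice and control set 2 overlapped, while neighbours elsewhere in the order of groups did not. The highest group mean was 2.156 times the lowest, against 1.456 (Klk1b21) to 1.767 (Klk1b4) for the other members.

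Klk1b4 and Klk1b3, the nerve growth factor subunit genes, had the same order of groups as Klk1b5. Klk1b4 averaged 18.88 ± 1.503 CPM in control set 1, 22.7 ± 1.759 in treated mutants, 24.71 ± 0.0928 in treated B6 mice, 30.84 ± 2.515 in control set 2 and 33.36 ± 3.996 in untreated mutants. Klk1b3 averaged 19.5 ± 2.019, 23.71 ± 1.149, 24.61 ± 0.6967, 27.49 ± 2.223 and 31.84 ± 2.446 CPM in these groups (SD, n = 3 mice each). Treated B6 mice lay below control set 2 without overlap for Klk1b4 but not for Klk1b3.

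Klk1b9, Klk1b21, Klk1b24 and Klk1b27 were the members outside the sum of 5. Klk1b9 ranged from 5.242 to 9.744 CPM over the 15 libraries, Klk1b21 from 12.11 to 20.91, Klk1b24 from 11.71 to 20.73 and Klk1b27 from 8.061 to 15.08 CPM. In each of them control set 1 was below every other library and untreated mutants had the highest mean.

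**Figure D2:**
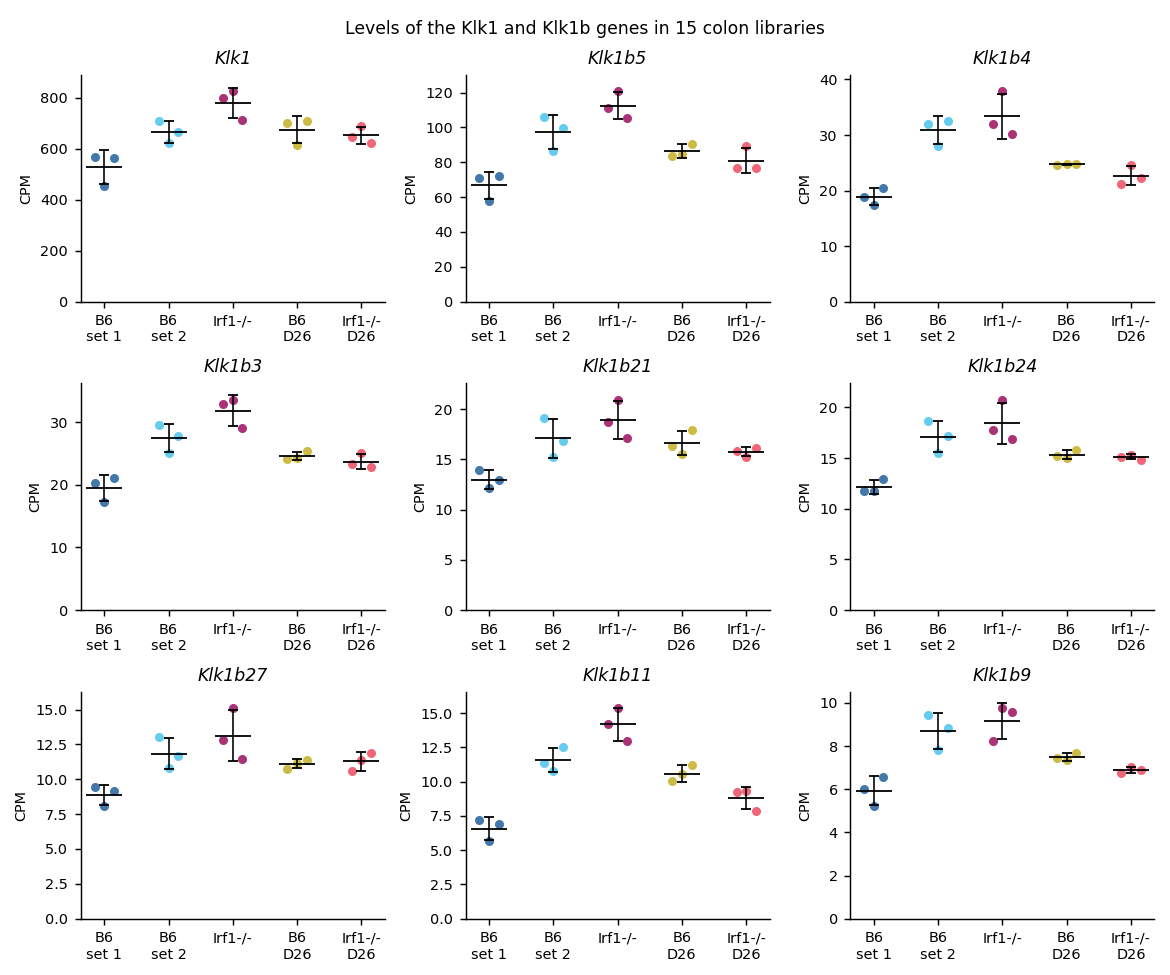
CPM of each member in every library, by group (untreated B6 of control sets 1 and 2, untreated Irf1-/-, and both genotypes at D26). Points are mice, the long bar is the mean and the whiskers the SD (n = 3), and in all 9 panels the 3 mice of control set 1 lie lowest and untreated Irf1-/- mutants have the highest mean.

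At steady state, the family level was 971.2 ± 72.88 CPM in Irf1-/- mutants and 833.1 ± 57.19 CPM in control set 2 (SD over 3 mice each), which is a log2 FC of 0.22 (SE 0.088). Klk1 (log2 FC 0.23, SE 0.0856) and Klk1b11 (0.29, SE 0.1144) were higher in mutants without overlap between the groups. Of all genes, 7.86% were higher and 7.57% lower without overlap. The other 7 members overlapped, with log2 FC from 0.08 (Klk1b9) to 0.21 (Klk1b3). The median over members was 0.15 and over all genes 0.00. Against control set 1 in place of set 2, the log2 FC of the family level was 0.60, and Klk1b3, Klk1b4, Klk1b5 and Klk1b11 were called (FC of at least 1.5 and adjusted p under 0.01, quasi-likelihood test of edgeR), as were 1.07% of all genes.

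In B6 mice, the family level was 640.2 ± 76.93 CPM in control set 1 and 820.4 ± 54.57 CPM at D26, a log2 FC of 0.37 (SE 0.111). All 9 members were higher at D26 with no overlap, against 17.2% of all genes higher and 17.3% lower. Their log2 FC ran from 0.33 (Klk1b27) to 0.70 (Klk1b11), with a median of 0.36. Against control set 2 the family level had a log2 FC of -0.0077, and all 8 Klk1b genes were below 0, down to -0.31 for Klk1b4, while Klk1 was at 0.03. The direction therefore rests on which untreated B6 mice served as controls. Genes within 1 percentage point of a member in GC content had median log2 FC between 0.03 and 0.09 in this comparison.

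In Irf1-/- mutants, the family level was 788.5 ± 44.9 CPM at D26 and 971.2 ± 72.88 CPM without treatment, a log2 FC of -0.30 (SE 0.0821). Of the 9 members, 8 were lower at D26 without overlap, as were 12.6% of all genes, and the exception was Klk1b27 (log2 FC -0.21, SE 0.1313). The log2 FC was -0.68 for Klk1b11, -0.55 for Klk1b4, -0.47 for Klk1b5, -0.42 for Klk1b3 and -0.25 for Klk1. The median over members was -0.41 and over all genes 0.01.

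The response of the mutants minus that of B6 mice was -0.66 in log2 FC for the family level (SE 0.1395). It was -0.61 for Klk1, -0.85 for Klk1b5, -0.94 for Klk1b4 and -1.37 for Klk1b11, with a median of -0.76 over the members and 0.01 over all genes. For 8 members, all but Klk1b27, treated mice lay above control set 1 in B6 and below untreated mice in mutants without overlap, as for 0.937% of all genes. With control set 2 as the untreated B6 mice, the difference for the family level was -0.28, and the 8 Klk1b genes were below 0 in both responses.

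At D26 the family level was 788.5 ± 44.9 CPM in mutants and 820.4 ± 54.57 CPM in B6 mice, a log2 FC of -0.07 (SE 0.1008). Klk1b4, Klk1b9 and Klk1b11 were lower in mutants without overlap in the scaling of this comparison, as were 14.5% of all genes. For Klk1b4 this separation was lost in the scaling over all 15 libraries, where the highest mutant had 24.64 CPM and the lowest B6 mouse 24.6 CPM.

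In the family level, untreated B6 mice of the 2 control sets differed by about as much as treated mice and control set 1 did. The log2 FC of set 2 against set 1 was 0.38 (SE 0.1063) for the family level, 0.33 for Klk1, 0.54 for Klk1b5, 0.71 for Klk1b4 and 0.82 for Klk1b11. All 9 members were higher in set 2 without overlap, as were 10.5% of all genes. What set the control sets apart is not given in the labels beyond their number and their table. The comparisons share mice, control set 1 entering 3 of them and untreated mutants 3.

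**Figure D3:**
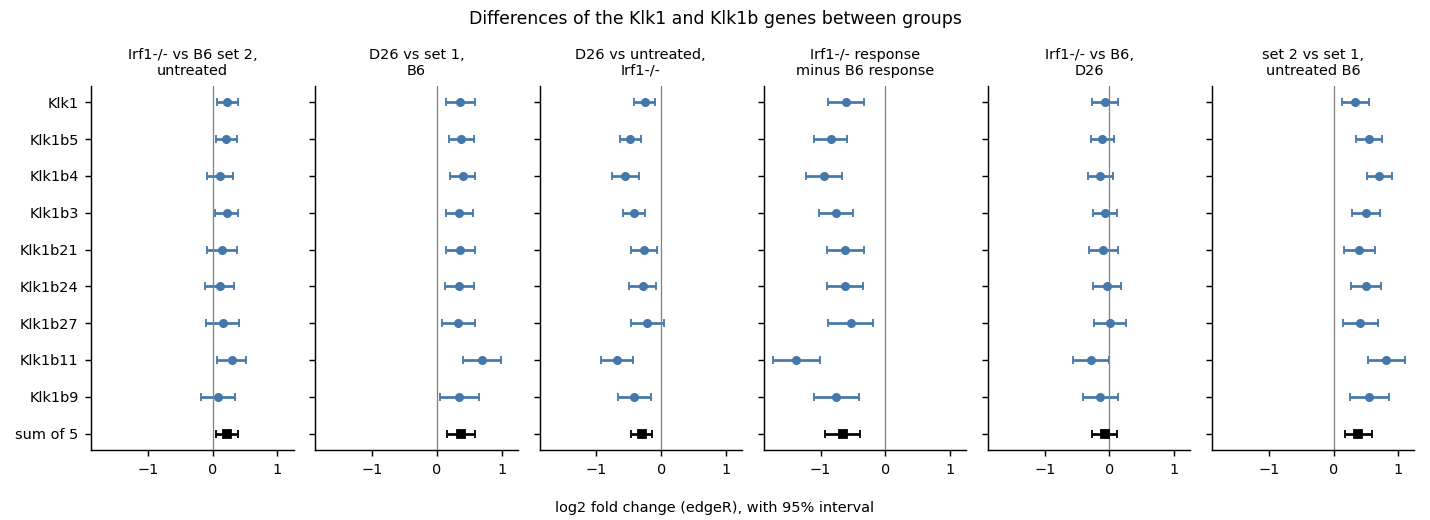
Log2 fold change (edgeR, x axis) of each member and of the sum of 5 (black square) in the 6 comparisons. Intervals are nominally 95%, from 3 mice per group, and can be narrower than 95% intervals matched to the test. Those of all members lie above 0 for D26 against control set 1 and for control set 2 against set 1. For the difference between responses all lie below 0. The family was chosen on these contrasts and its members share libraries and sequence. Intervals that leave out 0 are therefore a description and not separate tests.

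With a call defined as an FC of at least 1.5 and an adjusted p under 0.01 (quasi-likelihood test, edgeR), 0 of the 9 members were called in any of the 6 comparisons. Among all genes tested, 0.405% were called between untreated genotypes, 0.0475% for the B6 response, 0.252% for the Irf1-/- response, 0.016% for the difference between responses, 0.385% between treated genotypes and 0.0644% between the control sets. At an unadjusted p under 0.05 there were 4, 9, 8, 9, 0 and 9 members in that order, and 10.4%, 29.5%, 18.6%, 16.9%, 22% and 17.2% of all genes. DESeq2 called 0, 1, 1, 5, 0 and 2 members and 0.85%, 3.49%, 1.74%, 0.601%, 2.16% and 1.16% of all genes. Its members were Klk1b11 in both responses, Klk1, Klk1b3, Klk1b4, Klk1b5 and Klk1b11 for the difference between responses, and Klk1b4 and Klk1b11 between the control sets. A fit of all 15 libraries (edgeR) called Klk1b11 for the B6 response and for the difference between responses, and Klk1b4 between the control sets, beside 2.4%, 0.0243% and 0.0485% of all genes. The family was chosen on these contrasts.

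Each Klk1b gene was also set against Klk1 within the same library, a ratio that does not depend on library scaling. Counts of Klk1b3, Klk1b4, Klk1b5 and Klk1b11 together were 21.2% ± 0.517 of Klk1 counts in control set 1, 25.1% ± 0.931 in control set 2 and 24.63% ± 0.708 in untreated Irf1-/- mutants. At D26 they were 21.77% ± 1.63 in B6 mice and 20.84% ± 0.596 in mutants (SD, n = 3 mice each). For these 4 genes, control set 2 and untreated mutants, at 23.82% to 25.99%, lay above the other 9 libraries, at 20.26% to 23.54%. Over all 8 Klk1b genes this separation was lost, as treated B6 mouse 2 had 31.52% and untreated mutant 1 had 31.02%. Klk1b11 moved the most, from 1.245% ± 0.0216 in control set 1 to 1.819% ± 0.0411 in untreated mutants. Klk1b21 and Klk1b27 moved the least, with a highest group mean 1.057 and 1.072 times the lowest.

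**Figure D4:**
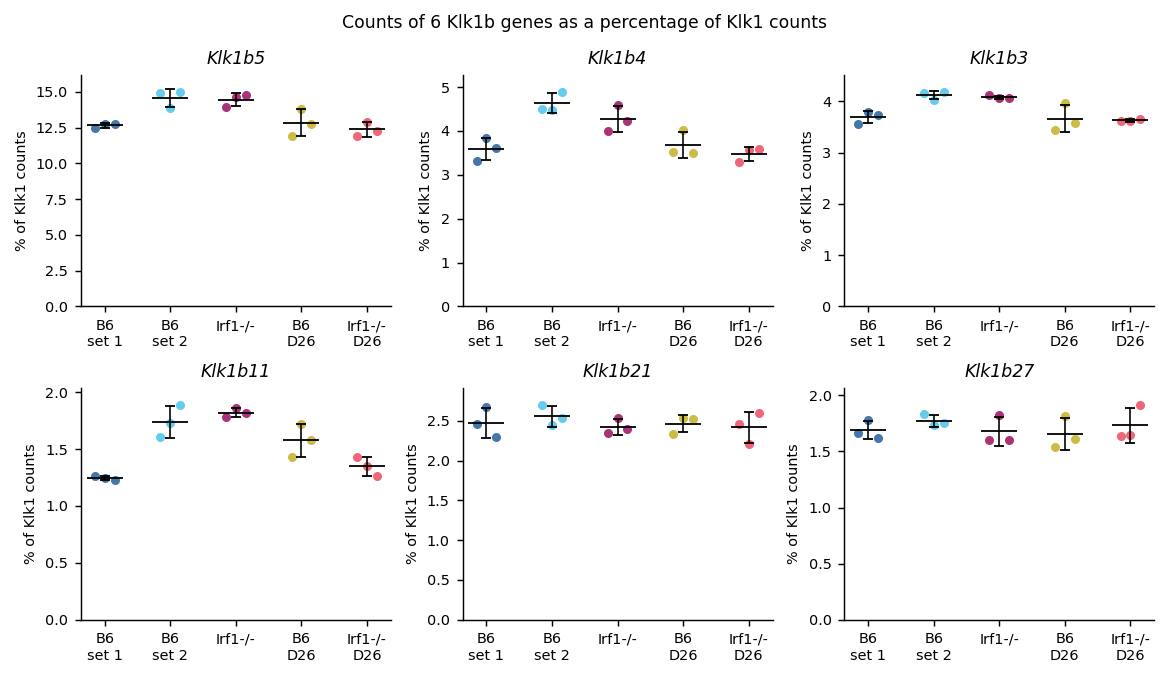
Counts of 6 Klk1b genes as a percentage of Klk1 counts in the same library, by group (points are mice, bars the mean and whiskers the SD, n = 3). Klk1b4, Klk1b5 and Klk1b3 were higher in control set 2 and untreated Irf1-/- mutants than in control set 1, Klk1b11 ran from 1.245% to 1.819%, and Klk1b21 and Klk1b27 differed little between groups.

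The promoters of 3 members are shown because the members moved together and because Klk1b11, the member with the widest range, is one of the less alike. They are the 250 bases before the RefSeq start (GRCm38.p6, + strand), at chr7:44225110-44225359 for Klk1, chr7:44216224-44216473 for Klk1b5 and chr7:43995627-43995876 for Klk1b11, and capitals mark TTTAAA, a variant of the TATA box.
Klk1: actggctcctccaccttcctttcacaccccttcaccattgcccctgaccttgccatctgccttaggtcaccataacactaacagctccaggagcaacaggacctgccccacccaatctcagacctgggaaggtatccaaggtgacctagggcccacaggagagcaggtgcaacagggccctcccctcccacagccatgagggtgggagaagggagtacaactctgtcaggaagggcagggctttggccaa
Klk1b5: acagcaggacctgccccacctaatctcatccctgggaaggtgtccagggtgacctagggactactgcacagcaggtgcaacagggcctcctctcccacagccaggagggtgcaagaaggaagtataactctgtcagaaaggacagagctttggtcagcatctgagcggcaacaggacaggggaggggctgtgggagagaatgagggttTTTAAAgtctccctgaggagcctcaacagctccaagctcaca
Klk1b11: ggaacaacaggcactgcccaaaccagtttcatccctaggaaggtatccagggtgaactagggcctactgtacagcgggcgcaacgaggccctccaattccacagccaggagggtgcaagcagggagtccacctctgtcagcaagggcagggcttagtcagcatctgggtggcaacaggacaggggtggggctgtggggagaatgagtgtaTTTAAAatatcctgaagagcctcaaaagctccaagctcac
TTTAAA, read the same on both strands, was in 7 of the 9 promoters (all but Klk1 and Klk1b21) and in 12.08% of all 32851 promoters of this length. The windows do not cover matching stretches, and 155 of the 250 bases aligned between Klk1 and Klk1b5. The Klk1 window ends before the stretch that holds TTTAAA in Klk1b5 and Klk1b11. Whether Klk1 has TTTAAA at the matching place was therefore not tested. TATAAA was in 0 of 9 and in 12.37% of all, and CACCC in 9 of 9 and in 52.01% of all, on either strand. AANNGAAA, the element read by interferon regulatory factors, was in 0 of 9 and in 21.31% of all, on either strand. TTCNNNGAA, the element read by STAT proteins, was in 0 of 9 and in 7.02% of all. A missing match says only that these letters are not in this window. Between pairs of the 9 promoters, 79.39% (Klk1 and Klk1b24) to 98.13% (Klk1b21 and Klk1b24) of aligned bases were the same. The 9 are therefore not separate cases, and neither enrichment nor lack of an element can be read from these counts.

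Kallikreins outside the Klk1 cluster were rare. Klk7, known from skin, and Klk10 averaged 7.454 and 7.576 CPM, and Klk15 was tested only between untreated genotypes and in the Irf1-/- response. Of 13 other kallikrein genes, 2 or 3 were tested per comparison and 0 were called (edgeR's quasi-likelihood test). The smallest adjusted p were 0.01398 for Klk10 in the B6 response (4.533 ± 0.749 CPM in control set 1 and 11.18 ± 1.18 at D26) and 0.03668 for Klk15 between untreated genotypes (30 to 110 counts in control set 2 and 175 to 341 in mutants).

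Of 18 genes listed for the kinin system, 9 to 11 were tested. The list held kininogens, kinin receptors and kinin-degrading enzymes, and also F12, Nos3 and Agtr2. Kng1 and Bdkrb1 were not analysed here, and Bdkrb2, the B2 receptor that kinins act on, ranged between group means of 8.547 and 11.13 CPM. Only Cpm, carboxypeptidase M, which trims the last arginine of kinins at the cell surface, passed the test, and only between the control sets. It had 75.37 ± 7.36 CPM in set 1 and 156.6 ± 3.33 CPM in set 2, with SD over 3 mice each (log2 FC 1.06, adjusted p = 0.0004922, edgeR). The call was lost without mouse 3 of control set 1 (adjusted p = 0.01014) and in a fit of all 15 libraries (adjusted p = 0.02696). The related Cpd was the most abundant gene of the list, at 635.9 to 800.2 CPM.

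Of 13 proteins that kallikreins can cleave or act on, 10 were tested. Plau, urokinase plasminogen activator, was higher in untreated Irf1-/- mutants (57.87 ± 7.24 CPM) than in control set 2 (21.02 ± 3.97 CPM), a log2 FC of 1.46 (adjusted p = 0.0006899, edgeR). At D26 it was higher in mutants than in B6 mice too (67.28 ± 8.71 and 33.52 ± 4.44 CPM, log2 FC 0.99, adjusted p = 0.00856). The call at D26 was lost without any 1 of the 6 mice (adjusted p from 0.01254 to 0.04999) and with the replicate block (adjusted p = 0.04992), while that at steady state held in all 13 alternatives. Atp12a, Scnn1a, Mmp2 and F2rl1, the most abundant of the list, were not called.

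Of 16 protease inhibitors 8 were tested and 0 were called in any of the 6 comparisons, with the smallest adjusted p at 0.01552 for Serpina3n in the B6 response (edgeR). Spint2, an inhibitor of membrane proteases, was the most abundant at 531.6 to 740.0 CPM. Of 20 other serine proteases 9 to 13 were tested. Prss22 alone was called, higher at D26 in Irf1-/- mutants (log2 FC 2.70, SE 0.315, adjusted p = 0.007717, edgeR). Prss22 was tested in this comparison only. Between untreated genotypes, too few libraries reached the authors' limit of 5 CPM for it to be tested. It thus entered the test through treated mutants, where it was higher, and was not fitted with the filter of 10 CPM. The call of Prss22 was lost without any 1 untreated mutant or without treated mutant 2 (adjusted p from 0.02577 to 0.06007).

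Genes whose log2 levels followed the family most closely over the 15 libraries were Tln2 for Klk1 (Pearson's r 0.836, Spearman's rho 0.85), followed by 9430015G10Rik, Slc12a8, Stox2 and Tmem208. For the sum of Klk1b3, Klk1b4, Klk1b5 and Klk1b11 they were Ostf1 (r 0.844, rho 0.954), Tmem238, Zdhhc9, Tmem208 and Mettl21e. After group means were removed, Gm19757 was closest to Klk1 (r 0.924), followed by Nr1h4, Pdxdc1, Slc16a10 and Phyh. For the Klk1b sum it was 2610528J11Rik (r 0.905), followed by 4933427D14Rik, Fkbp15, Adar and 2010002M12Rik. Of all these, Tmem208 alone was in the lists for both Klk1 and the Klk1b sum. These genes were picked as the highest r among the genes of all tables, over only 15 libraries. High r can arise from that choice alone, so they are a description, and a link to the family was not tested.

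Irf1 averaged 94.66 CPM in untreated and 110.5 CPM in treated mutants, against 133.2 to 207.9 CPM in the B6 groups, and the highest mutant library (123.2 CPM) was below the lowest B6 library (128.1 CPM). All 11 markers of colon epithelium were counted in every group. In Irf1-/- mutants their summed level was 8942 to 9036 CPM without treatment and 7829 to 8875 CPM at D26, lower without overlap. The markers did not move alike in mutants. At D26 the log2 FC was -0.17 for Krt8, the most abundant, -0.57 for Car1, -0.45 for Car4 and -0.36 for Aqp8. It was 0.42 for Cdx2, 0.39 for Krt20 and 0.08 for Epcam, and between -0.07 and 0.06 for the other markers. In B6 mice the summed level was 8904 to 9919 CPM in control set 1, 8106 to 9840 in control set 2 and 9291 to 9908 at D26. The summed level of 5 Hox genes of the distal hindgut was 409.6 to 420.0 CPM in untreated mutants and 292.9 to 395.3 at D26. Most of it was Hoxb13, with a mean of 303.8 CPM in untreated mutants and 244.4 at D26 (log2 FC -0.31). The log2 FC was -0.34 for Hoxd10, -0.25 for Hoxd13, -0.11 for Hoxd11 and 0.03 for Hoxa13. In B6 mice the Hox sum was 409.4 to 499.1 CPM in control set 1, 405.3 to 454.3 in control set 2 and 329.0 to 498.6 at D26. The summed level of 7 leukocyte markers was higher at D26 in mutants (313.5 to 397.6 CPM untreated, 525.2 to 534.0 at D26). In B6 mice the leukocyte sum was 318.6 to 501.2 CPM in control set 1, 274.7 to 367.5 in control set 2 and 435.4 to 624.9 at D26. Of 10 salivary gland and 10 pancreatic acinar markers, Egf (7.129 to 11.47 CPM) and Cela1 were analysed. The summed level of 11 goblet cell markers spanned 8168 to 12700 CPM for mice of control set 1, 14750 to 18630 for those of control set 2, 16850 to 17920 in untreated mutants, 19230 to 26560 in treated B6 mice and 16600 to 22640 in treated mutants. Spink4 of this list is also one of the 16 inhibitors above. Control set 1 was lowest for goblet markers as for the family, while the highest group was not the same. The part of these cell types in the kallikrein values was not tested. Xist, made by the inactive X chromosome, was under 100 CPM in 3 treated libraries (2 of B6 mice and 1 of a mutant) and 321 to 3729 CPM in the others. Without these libraries the log2 FC of the family level was 0.44 in the B6 response, where 1 treated B6 mouse was left, and -0.29 in the Irf1-/- response.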

How the data were processed

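Raw read counts per gene were deposited by the authors in 3 tables, each with 6 libraries. Per the labels, RNA depleted of ribosomal RNA was sequenced as stranded pairs of 50 bp. TopHat2 2.0.9, Bowtie 1.0.0, featureCounts, edgeR and the build mm9 are named in the submitters' processing notes. The authors had kept genes with 5 CPM or more in 3 libraries. Counts of untreated Irf1-/- mutants, held by 2 tables, were the same in both and entered each fit once, and 36 columns of CPM and log CPM were not used. Between mice of 1 group, the chi-square per gene was 8.65 to 42.69 times what sampling of reads alone gives.

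Tables were joined by symbol, and a gene was tested where every table of the comparison held it. Counts were scaled with TMM and fitted with the quasi-likelihood test of edgeR 4.0.16 (R 4.3.3) on the groups compared, with Benjamini-Hochberg adjustment over all genes, and this was tested on simulated data. CPM levels were scaled over the 12370 genes of all tables. SE come from this fit, and intervals are the log2 FC plus and minus 1.96 SE. With few mice per group, these intervals can be narrower than 95% intervals matched to the test. Between treated genotypes, that of Klk1b11 (-0.5618 to -0.0047) lay below 0, while 0 members had an unadjusted p under 0.05 (quasi-likelihood test). Alternatives included DESeq2 1.42.0, other B6 controls, the replicate number as a block and each mouse left out. The sum over 9 genes and the fit without libraries low in Xist were chosen after seeing the data.

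Members and gene lists were chosen with earlier results of these data known. The text gives every member, list genes that were called or among the 4 most abundant of their list, and the 5 genes most like Klk1 or the Klk1b sum (log2 CPM with a prior count of 2). Klk15, Serpina3n and Bdkrb2 were named after their values were seen. Sequences came from GENCODE M21 and RefSeq (GRCm38), and all 9 members matched by symbol. Coding sequences were aligned with Biopython 1.88.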

Additional observations from a re-analysis of the deposited data

Results flagged for a closer look

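The response to AOM/DSS had opposite directions in the genotypes for all 9 members, and for 8 of them and the family level without overlap. For these, every treated B6 mouse was above every mouse of control set 1 and every treated Irf1-/- mutant below every untreated one, as for 0.937% of all genes. The exception, Klk1b27, had log2 FC of 0.33 and -0.21 in B6 mice and mutants. The log2 FC of mutants minus that of B6 mice was -0.66 for the family level, -0.61 for Klk1, -0.85 for Klk1b5, -0.94 for Klk1b4, -0.76 for Klk1b3, -0.62 for Klk1b21, -0.63 for Klk1b24, -1.37 for Klk1b11 and -0.76 for Klk1b9. No p-value is given for the difference, because the family was chosen on these values. The opposite directions depend on the controls. With control set 2 as the untreated B6 mice, the B6 response was below 0 for the 8 Klk1b genes, as in mutants, and was 0.03 for Klk1 and -0.0077 for the family level. The difference was then -0.28 for the family level and -0.56 for Klk1b11, and -0.56 to -0.13 over the members.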

How the results depend on the processing

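Alternatives gave 721 values of a member's log2 FC over the 6 comparisons. Of these, 49 moved by more than the spread between mice, 45 of them with other B6 controls, and 11 changed sign. The family level moved only with other B6 controls. With the other control set its log2 FC was 0.60 between untreated genotypes, -0.0077 for the B6 response and -0.28 for the difference between responses, and with both sets it was 0.40 between untreated genotypes and 0.16 for the B6 response. Leaving out 1 mouse gave 0.17 to 0.28 between untreated genotypes, 0.28 to 0.43 and -0.36 to -0.25 for the B6 and Irf1-/- responses, -0.73 to -0.56 for their difference, -0.12 to -0.03 between treated genotypes and 0.28 to 0.44 between control sets. With all 9 genes in the sum no value moved beyond that spread.

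Counts of called genes in the whole tables moved more. In the order untreated genotypes, B6 response, Irf1-/- response, difference between responses, treated genotypes and control sets, there were 51, 6, 32, 2, 48 and 8 genes, against 107, 441, 221, 75, 270 and 144 with DESeq2. Leaving out 1 mouse gave 26 to 64, 0 to 152, 0 to 61, 1 to 9, 17 to 48 and 3 to 53. A filter of 10 CPM gave 29 for the B6 response and 13 for the Irf1-/- response. A fit of all 15 libraries gave 297 for the B6 response and 240 between treated genotypes. Other B6 controls gave 134 between untreated genotypes, 71 for the B6 response and 0 for the difference between responses (edgeR, 1854 genes at an unadjusted p under 0.05), and both sets gave 242 for the B6 response. Without libraries low in Xist there were 57, 61, 20 and 120 for the B6 response, the Irf1-/- response, their difference and treated genotypes. That left 1 treated B6 mouse, assumed to vary like the other groups. The causes were not tested.

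Same-numbered mice did not deviate together (r from -0.224 to 0.251 over 15 pairs), so the numbers were not taken to pair mice. With the replicate block there were 44, 5, 48, 2, 7 and 13 called genes.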
